A study of Mus musculus with 13 samples.

Results

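The genes described here are receptors and cell surface enzymes of extracellular purine signalling in CD8+ T cells: the ectonucleotidases Entpd1 and Nt5e, the adenosine receptor Adora2a, the ATP-gated channels P2rx4 and P2rx7, and the G protein-coupled receptors P2ry10 and P2ry14. The 7 symbols were chosen by name, and every probe set that the platform's annotation assigns to one of them alone was taken. This gave 15 probe sets for 6 of the 7 genes, among the 18193 genes measured: 4 for P2rx4, 3 each for Entpd1, Nt5e and P2rx7, and 1 each for P2ry10 and P2ry14. Adora2a had no probe set assigned to it alone and was not analysed here. Statements about a gene use its brightest probe set (by the mean of the 13 arrays), and the remaining probe sets are given beside it.

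The study profiled RNA of CD8+ T cells on 13 oligonucleotide arrays and asked how loss of Batf, an AP-1 family transcription factor, changes them before and after activation. All cells came from C57Bl/6 mice with the P14 T cell receptor transgene, which gives most CD8+ T cells of the animal the same specificity. The 4 groups were naive cells on day 0 from wild-type mice (2 arrays) or Batf-/- mice (3 arrays), and cells of each genotype after 3 days on plate-bound antibodies to CD3 and CD28 with 100 U/ml of recombinant human IL-2 (4 arrays each). Cells were enriched by magnetic removal of other cell types, so some of these may remain, and a naive and a day 3 sample differ in antibodies, IL-2 and culture together. Ages of the mice are not given in the sources used here, and nothing there ties an array to an animal or culture. The p-values therefore measure the spread between these arrays, which may be technical.

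Activated, stressed and dying cells release ATP, which opens P2X channels and acts on some P2Y receptors of nearby cells. Entpd1 (CD39) removes phosphates from ATP and ADP to give AMP, and Nt5e (CD73) converts AMP to adenosine, which restrains T cells through Adora2a, a receptor that raises cyclic AMP. P2rx7 responds to high ATP and can lead to pore formation and death of T cells, while P2rx4 responds to lower ATP. P2ry14 is a receptor for UDP-glucose and other nucleotide sugars, and P2ry10, despite its name, responds to lysophosphatidylserine.

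Among the brightest probe sets of these genes, that of P2ry14 was the one that passed between genotypes at day 3, and P2rx7 had the largest fall with stimulation, on 2 of its 3 probe sets. Stretches just upstream of some of their RefSeq start sites (assembly GRCm38.p6, written in the direction of the gene) are shown because Batf belongs to the AP-1 family. The capitals mark the AP-1 motif TGANTCA, which reads the same on both strands. In the windows of 250 bases before each start, the motif was found in 4 of the 12 windows of these genes, which belong to P2ry14, P2rx7 and P2ry10. P2ry14 has 4 windows and P2rx7 has 2, and those of their windows that are not shown held no motif. Over all genes, 6.75% of 32851 such windows held it. Counted by gene, 3 of the 6 genes with a window had the motif, against 7.82% of 27025 genes. The cyclic AMP response element TGACGTCA, which AP-1 and CREB family proteins can bind, was found in 0 of the 12 windows and in 1.55% of all windows. A match describes the sequence and does not show binding.
P2ry14, most upstream start, chr3:59153493-59153742, minus strand: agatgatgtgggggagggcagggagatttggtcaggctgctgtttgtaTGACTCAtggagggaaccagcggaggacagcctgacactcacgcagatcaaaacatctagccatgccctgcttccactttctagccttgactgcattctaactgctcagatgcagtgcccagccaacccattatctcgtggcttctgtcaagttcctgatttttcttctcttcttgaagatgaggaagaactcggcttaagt
P2ry14, next start, chr3:59131329-59131578, minus strand: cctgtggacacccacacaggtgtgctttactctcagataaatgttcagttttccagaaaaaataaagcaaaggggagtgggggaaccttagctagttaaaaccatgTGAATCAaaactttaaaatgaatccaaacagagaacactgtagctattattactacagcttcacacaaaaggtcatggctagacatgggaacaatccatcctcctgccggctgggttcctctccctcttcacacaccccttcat
P2rx7, upstream start, chr5:122643677-122643926, plus strand: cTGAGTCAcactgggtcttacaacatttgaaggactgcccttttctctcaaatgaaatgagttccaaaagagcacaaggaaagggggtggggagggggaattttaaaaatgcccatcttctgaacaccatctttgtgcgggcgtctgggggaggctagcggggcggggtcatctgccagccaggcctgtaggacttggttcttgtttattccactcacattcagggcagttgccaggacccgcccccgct
In the P2ry14 windows the motif began 202 bases before the first of these starts, as TGACTCA, and 144 bases before the next, as TGAATCA. P2rx7 had it at the far edge of its window, 249 bases before the start, as TGAGTCA. The P2ry10 window that held the motif had TGAATCA 99 bases before the start.

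The labels and the identity of the cells were checked first. Batf was lower in all 7 Batf-/- arrays than in all 6 wild-type arrays: the highest log2 intensity in Batf-/- cells was 6.77 and the lowest in wild-type cells 8.63. The mean of 6 measured CD8 T cell markers lay between 11.8 and 12.3 in every array. At day 3, mean levels of the marker lists for B cells, NK cells, monocytes and macrophages, neutrophils and dendritic cells lay between 3.94 and 5.22, and none of these lists had a gene that passed between the genotypes there. The 4 CD4 T cell and Treg markers averaged 4.99 to 5.088 in wild-type and 5.089 to 5.209 in Batf-/- day 3 arrays, without overlap. Of these 4, 0 passed between genotypes there. With stimulation 1 of the 4 rose in wild-type and 3 in Batf-/- cells, against 22.4% and 23.8% of all genes. Their part in the values of the purinergic genes was not tested. In naive arrays the lists for B cells, NK cells, monocytes and macrophages, neutrophils and dendritic cells were higher than at day 3. The monocyte and macrophage list lay at 6.93 to 6.94 in wild-type and 6.65 to 8.19 in Batf-/- naive arrays, and the neutrophil list at 5.97 to 6.42 and 5.28 to 9.26. The 4 measured of 5 NK cell markers averaged 7.13 to 7.23 in wild-type and 7.76 to 8.85 in Batf-/- naive arrays, without overlap. There 1 of the 4 passed as higher in Batf-/- cells (4 at an unadjusted p below 0.05), against 0.813% of all genes. Naive Batf-/- replicate 1 held the upper end of all 3 lists, and it also differed most from its group mean over all genes (SD 0.228). In RNA of mixed cells, fewer cells of a type and less RNA per cell cannot be told apart.

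Differences below are on the log2 scale with their standard error (SE), from a linear model over all 13 arrays fitted with limma. A gene passed when its p, adjusted by the Benjamini-Hochberg method over all 18193 genes, was below 0.05. Intensities of different probe sets have no common scale, so each probe set is compared only with itself. The lowest 40% of probe sets had means below 4.35 and are called dim.

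At day 3, 1 of the 6 measured genes was higher in Batf-/- cells (P2ry14) and none was lower. Of all genes, 1.37% passed in this comparison, 0.665% higher and 0.709% lower. The median difference of the 6 genes was 0.20, against 0.014 over all genes. The groups did not overlap for 3 of the 6 (P2ry14, Entpd1 and Nt5e), all higher in Batf-/- cells, and for 12.8% of all genes. In naive cells 0 of the 6 passed, against 1.08% of all genes, and 1 had an unadjusted p below 0.05. Entpd1 was the 1 gene of the 6 whose naive groups did not overlap, which was so for 24.5% of all genes, and the median difference was -0.009 (0 over all genes).

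With stimulation, 2 of the 6 genes rose (P2ry14 and Entpd1) and 1 fell (P2rx4) in wild-type cells, where 45.4% of all genes passed (22.4% rose and 23% fell). In Batf-/- cells 3 of the 6 rose (these and Nt5e) and P2rx4 fell, against 47% of all genes (23.8% rose and 23.2% fell). The states did not overlap for 4 of the 6 in each genotype (58.3% of all genes in wild-type and 48.2% in Batf-/- cells). The median change was 0.17 in wild-type and 0.35 in Batf-/- cells, against 0.047 and 0.049 over all genes. These counts take P2rx7 at its brightest probe set, which did not pass. The change to day 3 did not pass as different between genotypes for any of the 6 (0.649% of all genes did), and 2 of them, P2ry14 and Nt5e, had an unadjusted p below 0.05.

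**Figure D1:**
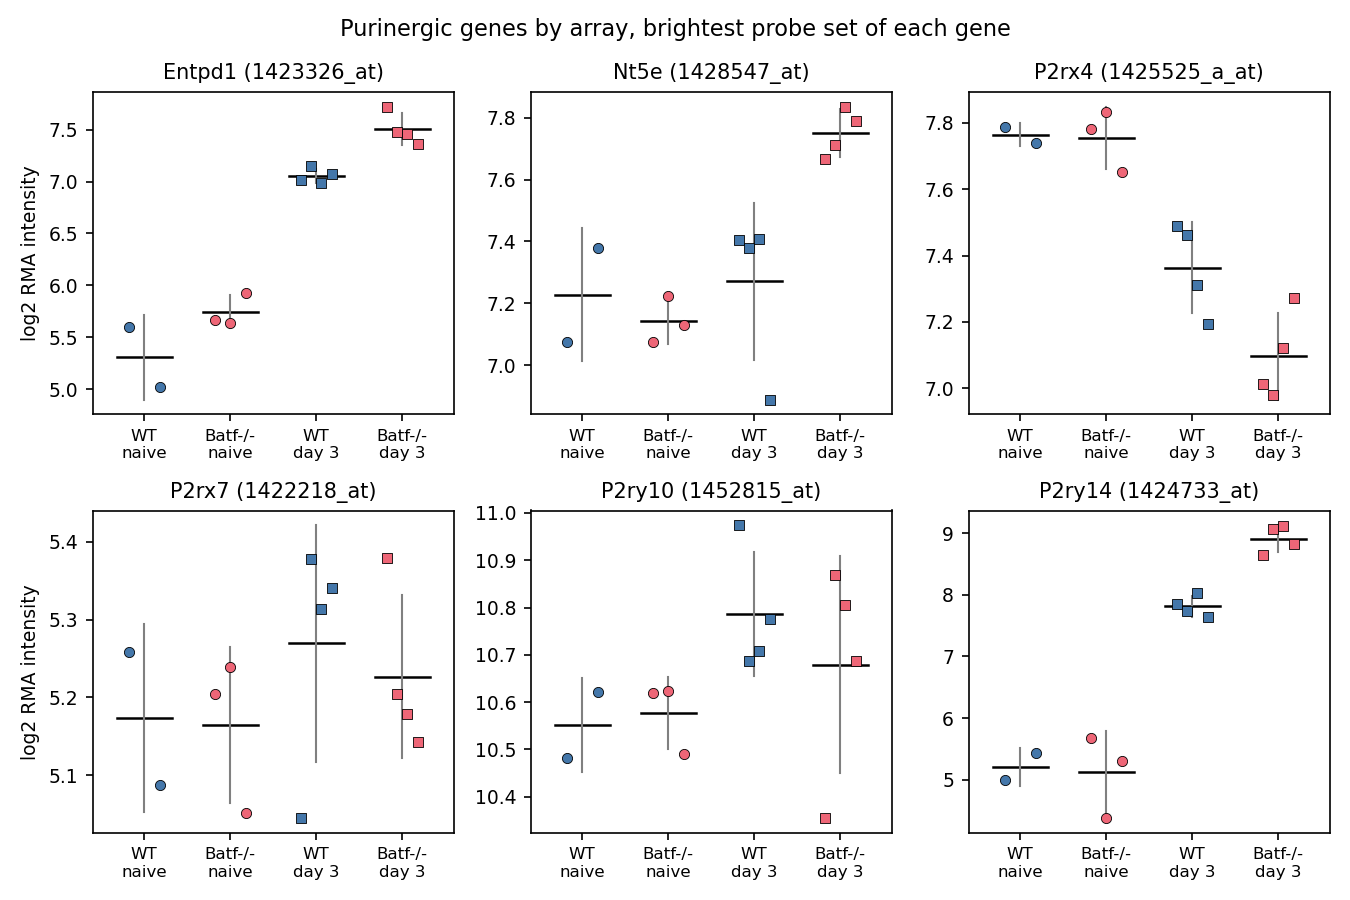
Log2 intensity in each of the 13 arrays for the brightest probe set of the 6 measured genes. Each panel has its own vertical axis, circles are naive and squares day 3 arrays, wild type (WT) is blue and Batf-/- red, the bar is the group mean and the line 1 SD. P2ry14 rose with stimulation and stood between 8.64 and 9.11 in Batf-/- day 3 arrays, above the 7.64 to 8.03 of wild-type day 3 arrays, whereas P2rx4 fell.

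Among the adenosine-making enzymes, Entpd1, which starts the conversion of ATP, rose with stimulation in both genotypes. Its log2 intensity was 5.59 and 5.02 in wild-type naive arrays and 5.66, 5.64 and 5.93 in Batf-/- naive arrays. Day 3 values were 7.02, 7.15, 6.99 and 7.07 in wild-type and 7.72, 7.48, 7.46 and 7.36 in Batf-/- arrays. Every day 3 array was above every naive array, and in both states each Batf-/- array was above each wild-type array. The rise was 1.75 ± 0.14 in wild-type cells (3.36-fold, adjusted p = 3.92e-07) and 1.76 ± 0.13 in Batf-/- cells (3.39-fold, adjusted p = 1.04e-07). The difference between these changes was 0.011 ± 0.19 (95% interval -0.40 to 0.42, adjusted p = 0.993).

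The genotype difference of Entpd1 did not pass in either state. It was 0.45 ± 0.12 at day 3 (95% interval 0.20 to 0.70, adjusted p = 0.091) and 0.44 ± 0.15 in naive cells (adjusted p = 0.217). The order of the group means was wild-type naive 5.31 ± 0.41 (SD, n = 2), Batf-/- naive 5.75 ± 0.16 (n = 3), wild-type day 3 7.05 ± 0.07 (n = 4) and Batf-/- day 3 7.51 ± 0.15 (n = 4). Neighbours within a state did not pass as different, and the step from Batf-/- naive to wild-type day 3 was not tested. The day 3 difference passed when only the 2 day 3 groups were fitted (adjusted p = 0.0118), with weights for array quality (adjusted p = 0.0167), or without either wild-type naive array (adjusted p = 0.029 each). The other 20 of 24 alternatives did not pass at day 3, with adjusted p up to 0.221 apart from the 2-fold minimum. The naive difference was 0.73 without wild-type naive replicate 1, and it ranged from 0.15 to 0.73 over its 24 alternatives.

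B cells and myeloid cells also carry Entpd1. In naive arrays the 7 measured of 8 B cell markers averaged 6.01 to 6.41 in wild-type and 6.73 to 7.12 in Batf-/- arrays. Of these markers 3 of the 7 passed as higher in naive Batf-/- cells, against 0.813% of all genes. At day 3 they averaged 4.77 to 5.001 over both genotypes, and 0 of the 7 passed between them. No marker is listed at 0, and in naive arrays 0 to 2 of the 7 were dim. The part of these cells in the naive Entpd1 values was not tested.

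The 2 further Entpd1 probe sets also rose. For 1450939_at the change was 0.62 ± 0.21 in wild-type cells (adjusted p = 0.0304 over all 45037 probe sets) and 1.005 ± 0.19 in Batf-/- cells (adjusted p = 0.000568). For the dim set 1453586_at it was 0.74 ± 0.17 (adjusted p = 0.00322) and 0.50 ± 0.15 (adjusted p = 0.0177). Over all probe sets 38.6% passed in wild-type and 38.3% in Batf-/- cells. At day 3 each of the 3 sets had its 4 Batf-/- arrays above its 4 wild-type arrays, with differences of 0.37 to 0.45 and none past the test. In naive cells the genotype difference was -0.015 ± 0.22 for 1450939_at, with overlapping groups (adjusted p = 0.986). For the dim set 1453586_at it was 0.66 ± 0.18 without overlap (adjusted p = 0.123). The 3 sets were read on the same arrays and are not independent.

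The weaker of these calls were lost in some of the 13 fits that left out 1 array. Over these fits the wild-type rise of 1450939_at was 0.55 to 0.69. Without wild-type naive replicate 1 or 2, or wild-type day 3 replicate 2, the wild-type rise of 1450939_at had an adjusted p of 0.0793, 0.169 and 0.0617, and without wild-type day 3 replicate 1 it was 0.05. For 1453586_at the wild-type rise was 0.44 without wild-type naive replicate 2 (adjusted p = 0.0987). Its Batf-/- rise was 0.33 without Batf-/- naive replicate 2 (adjusted p = 0.101) and 0.45 without Batf-/- day 3 replicate 3 (adjusted p = 0.0503).

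Nt5e, the enzyme that makes adenosine from AMP, was highest in Batf-/- cells at day 3. Its log2 intensity was 7.08 and 7.38 in wild-type naive arrays and 7.08, 7.22 and 7.13 in Batf-/- naive arrays. After stimulation it was 7.41, 7.38, 7.41 and 6.89 in wild-type and 7.67, 7.71, 7.84 and 7.79 in Batf-/- arrays. The Batf-/- day 3 arrays were above all others, and the remaining groups overlapped. In Batf-/- cells Nt5e rose by 0.61 ± 0.12 (1.52-fold, adjusted p = 0.000875). In wild-type cells the change was 0.043 ± 0.14 (95% interval -0.25 to 0.34, adjusted p = 0.83).

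The test of the difference between these changes did not pass (0.57 ± 0.18, 95% interval 0.17 to 0.96, adjusted p = 0.217). Nor did the genotype difference at day 3 (0.48 ± 0.11, 95% interval 0.24 to 0.72, adjusted p = 0.0592) or in naive cells (-0.084 ± 0.14, adjusted p = 0.854). The day 3 difference lay near the threshold, with adjusted p from 0.00935 to 0.23 over the alternatives other than the 2-fold minimum, which it did not reach. It passed with a second quantile normalisation (adjusted p = 0.0436), without the dim probe sets (0.0412), with an intensity trend (0.0388), with array weights (0.00935), with the day 3 groups alone (0.0442) and without Batf-/- naive replicate 1 (0.0405). Wild-type day 3 replicate 4 held 6.89, against 7.38 to 7.41 in the rest of its group.

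Without wild-type day 3 replicate 4 the genotype difference of Nt5e was 0.35 ± 0.08 (adjusted p = 0.0571). The 2 further Nt5e probe sets had smaller differences. At day 3 the genotype difference was 0.11 ± 0.09 for 1422974_at (adjusted p = 0.747) and 0.10 ± 0.09 for 1459023_at (adjusted p = 0.782), with overlapping groups. The mean of all 3 sets differed by 0.23 (adjusted p = 0.23). With stimulation in Batf-/- cells 1422974_at changed by 0.21 ± 0.10 (adjusted p = 0.117) and 1459023_at by 0.053 ± 0.1 (adjusted p = 0.72).

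Among the ATP-gated channels, P2rx4 fell with stimulation in both genotypes. Its log2 intensity was 7.79 and 7.74 in wild-type naive arrays and 7.78, 7.83 and 7.65 in Batf-/- naive arrays. The day 3 values were 7.49, 7.46, 7.31 and 7.19 in wild-type and 7.01, 6.98, 7.12 and 7.27 in Batf-/- arrays. All day 3 arrays were below all naive arrays, and the day 3 groups overlapped. The change was -0.40 ± 0.10 in wild-type cells (1.32-fold lower, adjusted p = 0.00505) and -0.66 ± 0.09 in Batf-/- cells (1.58-fold lower, adjusted p = 3.58e-05). The difference between the changes was -0.26 ± 0.14 (adjusted p = 0.489).

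The genotypes of P2rx4 did not pass as different at day 3 (-0.27 ± 0.08, adjusted p = 0.165) or in naive cells (-0.009 ± 0.11, adjusted p = 0.98). A second probe set, 1452527_a_at, was lower in Batf-/- cells at day 3: its values were 5.51, 5.69, 5.84 and 5.69 in wild-type and 5.31, 5.27, 5.05 and 5.38 in Batf-/- arrays. These groups did not overlap, and the difference of -0.43 ± 0.09 passed over all probe sets (adjusted p = 0.042; 0.773% of all probe sets passed). It kept its direction in each of 13 fits that left out 1 array (-0.48 to -0.36) and passed in 4 of them. The call was lost without either wild-type naive array (adjusted p = 0.0548 each), wild-type day 3 replicates 2, 3 or 4 (0.133, 0.141 and 0.092), or any Batf-/- day 3 array (0.059, 0.118, 0.144 and 0.0584 for replicates 1 to 4).

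With stimulation 1452527_a_at changed by -0.29 ± 0.11 in wild-type cells (adjusted p = 0.0486, which passed in 4 of 13 fits without 1 array, with adjusted p up to 0.255 without wild-type naive replicate 1) and -0.72 ± 0.10 in Batf-/- cells (adjusted p = 2.65e-05). Another set, 1446429_at, changed by -0.91 ± 0.16 in wild-type cells (adjusted p = 0.000449) and by -0.26 ± 0.15 in Batf-/- cells (adjusted p = 0.181). The difference between these changes was 0.65 ± 0.22 (adjusted p = 0.28). For that set the naive arrays held 6.24 and 6.06 in wild-type and 5.17, 5.82 and 5.60 in Batf-/- cells, without overlap, and the naive difference of -0.62 ± 0.17 did not pass (adjusted p = 0.129). The dim set 1441772_at passed in none of the comparisons.

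The 3 probe sets of P2rx7, the high-ATP channel, did not behave alike. The brightest by mean, 1422218_at, passed in none of the comparisons: it held 5.26 and 5.09 in wild-type naive, 5.21, 5.24 and 5.05 in Batf-/- naive, 5.04, 5.38, 5.31 and 5.34 in wild-type day 3 and 5.38, 5.21, 5.18 and 5.14 in Batf-/- day 3 arrays. All groups overlapped. Its change with stimulation was 0.096 ± 0.10 in wild-type (adjusted p = 0.493) and 0.062 ± 0.09 in Batf-/- cells (adjusted p = 0.616), and the genotype difference at day 3 was -0.043 ± 0.09 (adjusted p = 0.907).

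The other two fell with stimulation in both genotypes. For 1439787_at the values were 6.58 and 6.46 in wild-type naive and 6.09, 6.24 and 5.90 in Batf-/- naive arrays, and 3.76, 4.19, 3.79 and 4.13 in wild-type and 4.37, 4.11, 4.04 and 4.38 in Batf-/- day 3 arrays. No day 3 array reached a naive one. The change was -2.55 ± 0.14 in wild-type (adjusted p = 1.01e-08) and -1.85 ± 0.13 in Batf-/- cells (adjusted p = 5.67e-08). Because the day 3 means were dim, these are bounds, at least 4.5-fold lower in wild-type and at least 3.32-fold lower in Batf-/- cells when the day 3 level is set to 4.35.

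For 1419853_a_at the values were 5.53 and 5.51 in wild-type naive and 4.995, 5.27 and 4.55 in Batf-/- naive arrays. They lay between 2.25 and 2.55 in wild-type day 3 and between 2.34 and 2.46 in Batf-/- day 3 arrays. The change was -3.14 ± 0.15 in wild-type (adjusted p = 1.64e-09, at least 2.25-fold lower) and -2.56 ± 0.13 in Batf-/- cells (adjusted p = 2.83e-09, at least 1.51-fold lower). Both sets kept these calls in each of the 13 fits that left out 1 array. With the mean of the 3 sets the change of P2rx7 was -1.87 in wild-type and -1.45 in Batf-/- cells.

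In naive cells both of these P2rx7 sets were lower in each Batf-/- array than in each wild-type array. The difference was -0.44 ± 0.15 for 1439787_at (adjusted p = 0.215) and -0.58 ± 0.16 for 1419853_a_at (adjusted p = 0.115), and neither passed, against 0.739% of all probe sets that did. The NK cell list averaged higher in those Batf-/- arrays, as given above, and their part in these values was not tested. At day 3 the differences were 0.26 ± 0.12 (adjusted p = 0.458) and 0.002 ± 0.12 (adjusted p = 0.999) between dim means. The change to day 3 did not pass as different between genotypes (0.70 ± 0.19, adjusted p = 0.182, and 0.58 ± 0.20, adjusted p = 0.283).

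Macrophages, dendritic cells and NK cells also use P2rx7, and their marker lists fell with stimulation. In wild-type and Batf-/- cells respectively, 4 and 5 of 6 monocyte and macrophage markers fell, and 3 and 4 of 5 dendritic cell markers. So did 4 and 4 of 4 measured NK cell markers, and 3 and 3 of 5 measured neutrophil markers. Of all genes, 23% fell in wild-type and 23.2% in Batf-/- cells. The monocyte and macrophage list went from 6.65 to 8.19 over all naive arrays to 4.61 to 4.84 at day 3. No marker is listed at 0, and at day 3 between 2 and 4 of the 6 were dim. Batf-/- naive replicate 1, with 8.19 for that list against 6.65 and 7.25 in replicates 2 and 3, held 6.09 for P2rx7 set 1439787_at, between the 6.24 and 5.90 of those replicates. The part of other cells in the fall of P2rx7 was not tested.

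**Figure D2:**
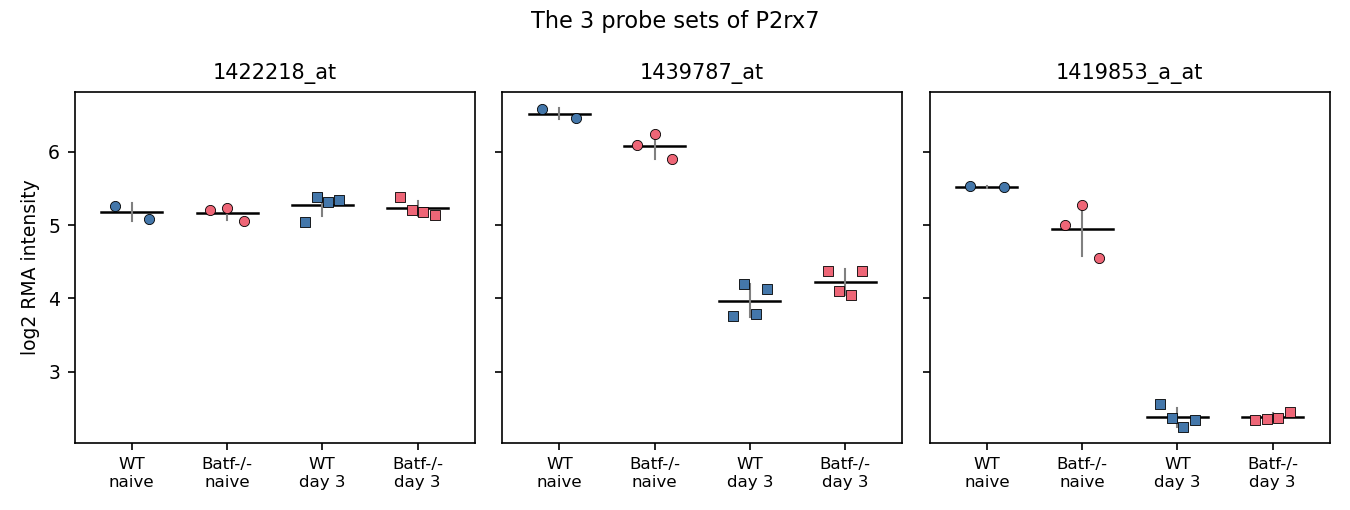
Log2 intensity of the 3 P2rx7 probe sets in each of the 13 arrays, with circles for naive and squares for day 3 arrays, wild type (WT) in blue and Batf-/- in red, bars for group means and lines for 1 SD. The set 1422218_at lay between 5.04 and 5.38 in all arrays, whereas 1439787_at and 1419853_a_at were lower in every day 3 array than in every naive array.

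Of the G protein-coupled receptors, P2ry14, the UDP-sugar receptor, rose with stimulation and was higher in Batf-/- cells at day 3. Its log2 intensity was 4.99 and 5.43 in wild-type naive and 5.67, 4.38 and 5.31 in Batf-/- naive arrays. Stimulated cells held 7.85, 7.73, 8.03 and 7.64 in wild-type and 8.64, 9.07, 9.11 and 8.82 in Batf-/- arrays. The naive groups overlapped, every day 3 array was above them, and the Batf-/- day 3 arrays were above the wild-type ones. The rise was 2.61 ± 0.27 in wild-type (6.1-fold, adjusted p = 3.51e-06) and 3.79 ± 0.24 in Batf-/- cells (13.8-fold, adjusted p = 3.44e-08).

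The genotype difference at day 3 was 1.09 ± 0.22 (2.13-fold, 95% interval 0.61 to 1.58, adjusted p = 0.0302). In naive cells it was -0.089 ± 0.29 (adjusted p = 0.926). The larger change in Batf-/- cells did not pass as a difference between genotypes (1.18 ± 0.36, 95% interval 0.39 to 1.97, adjusted p = 0.194). In order, the group means were 5.12 ± 0.67 (SD, n = 3) in Batf-/- naive, 5.21 ± 0.31 (n = 2) in wild-type naive, 7.82 ± 0.17 (n = 4) in wild-type day 3 and 8.91 ± 0.22 (n = 4) in Batf-/- day 3 arrays.

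The size of the day 3 difference of P2ry14 was steady, but its call was not. In the 13 fits that left out 1 array the difference was 1.03 to 1.18, and it passed in 6 of them. It did not pass without any one of wild-type day 3 replicates 1 to 4 (adjusted p = 0.0847, 0.102, 0.0549 and 0.0819) or Batf-/- day 3 replicates 2, 3 and 4 (0.11, 0.111 and 0.0733). Without Batf-/- naive replicate 2, whose 4.38 was the lowest value of the gene, the adjusted p was 0.00158, and with the day 3 groups alone it was 0.000785. The difference between the changes passed without Batf-/- naive replicate 1 (1.46, adjusted p = 0.0448) and with array weights (1.15, adjusted p = 0.0462).

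P2ry10, the lysophosphatidylserine receptor, passed in none of the comparisons. Its log2 intensity was 10.48 and 10.62 in wild-type naive and 10.62, 10.62 and 10.49 in Batf-/- naive arrays. It lay between 10.69 and 10.97 in wild-type day 3 and between 10.36 and 10.87 in Batf-/- day 3 arrays. The wild-type day 3 arrays were above all naive arrays of both genotypes, and the other pairs of groups overlapped. The change was 0.23 ± 0.13 in wild-type (adjusted p = 0.159) and 0.10 ± 0.11 in Batf-/- cells (adjusted p = 0.491). At day 3 the genotype difference was -0.11 ± 0.10 (95% interval -0.33 to 0.12, adjusted p = 0.77), and in naive cells 0.025 ± 0.13 (adjusted p = 0.956). Whether its probes also bind RNA of its relative P2ry10b was not tested.

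**Figure D3:**
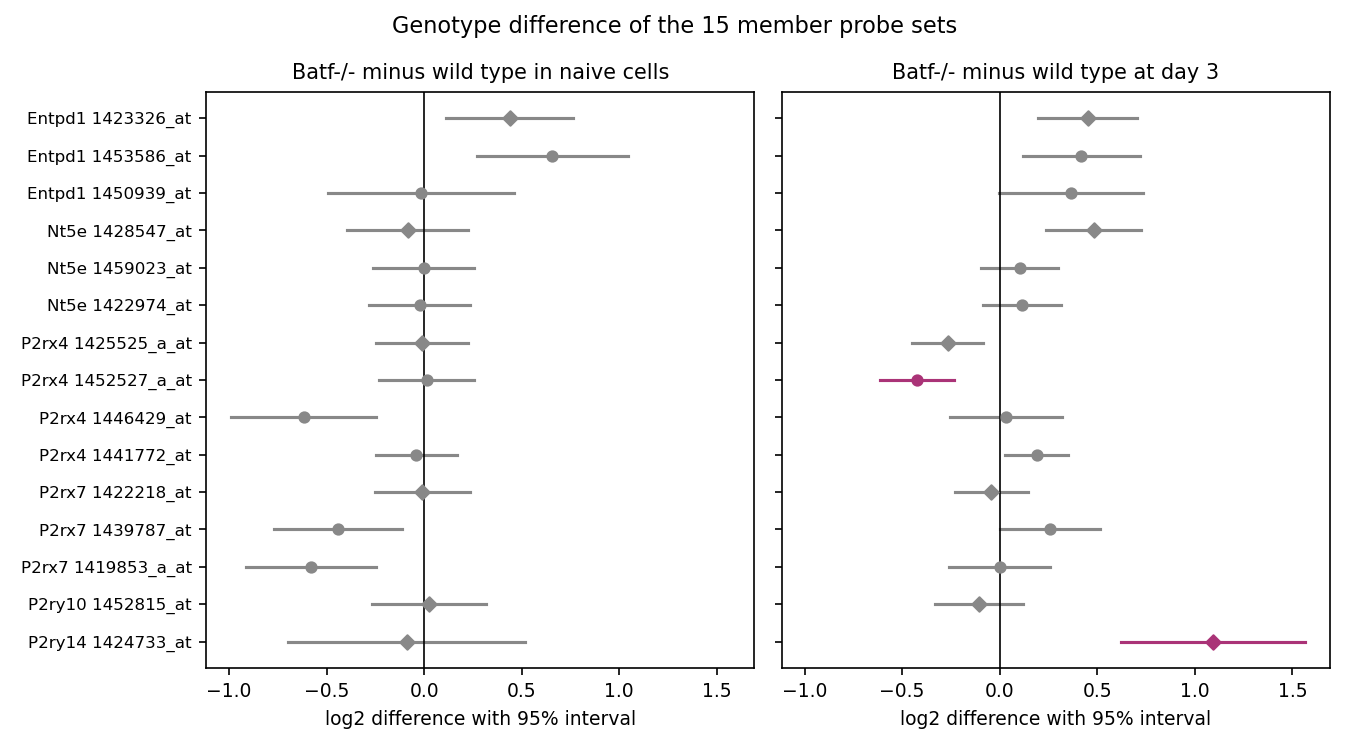
Log2 difference Batf-/- minus wild type for the 15 probe sets in naive cells (left) and at day 3 (right), with 95% intervals. Diamonds are the brightest set of each gene, circles the others, and purple marks an adjusted p below 0.05 over all 45037 probe sets, which was reached at day 3 by P2ry14 (1.09) and P2rx4 set 1452527_a_at (-0.43) and in naive cells by none.

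Of 54 further genes of purine signalling that were listed by role, 46 were measured. At day 3, 0 of the 46 were higher and 2 were lower in Batf-/- cells, with a median difference of 0.027 (0.014 over all genes), where 1.37% of all genes passed. The groups did not overlap for 12 of the 46, and for 12.8% of all genes. The 2 were Gpr174, another lysophosphatidylserine receptor, and Pde3b, a phosphodiesterase that degrades cyclic AMP. Gpr174 was 8.20, 8.18, 8.11 and 8.22 in wild-type and 7.37, 7.26, 7.22 and 6.94 in Batf-/- day 3 arrays. These groups did not overlap, and the difference was -0.98 ± 0.17 (adjusted p = 0.0117). The array maker's suffix on its probe set (x) marks probes that may also bind other transcripts. Pde3b was 12.03, 12.03, 11.89 and 12.01 in wild-type and 11.54, 11.48, 11.43 and 11.51 in Batf-/- day 3 arrays, a difference of -0.50 ± 0.06 (adjusted p = 0.00177).

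In naive cells 0 of the 46 were higher and 2 were lower in Batf-/- cells, where 1.08% of all genes passed (0.264% lower), and the median was -0.025 (0 over all genes). Pde3b was lower here too (-0.40 ± 0.08, adjusted p = 0.0376), as was Gpr34 (-1.11 ± 0.20, adjusted p = 0.02), which also responds to lysophosphatidylserine. Gpr34 was 5.30 and 5.97 in wild-type naive and 4.70, 4.65 and 4.21 in Batf-/- naive arrays. The count of 2 became 0 without wild-type naive replicate 2 or Batf-/- naive replicate 3, stayed at 2 without Batf-/- naive replicate 2, and was 1 when any other array was left out. No gene of the 46 passed for a difference between genotypes in the change to day 3, and 6 had an unadjusted p below 0.05.

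With stimulation, 8 of the 46 rose and 16 fell in wild-type cells (median -0.042, against 0.047 over all genes), and 11 rose and 14 fell in Batf-/- cells (median 0.024, against 0.049). Of all genes, 45.4% passed in wild-type and 47% in Batf-/- cells, so the shares of the list that passed lay near those of all genes. In the cyclic AMP branch, which carries the signal of Adora2a, 4 of 14 measured genes rose and 5 fell in wild-type and 5 rose and 5 fell in Batf-/- cells, where 22.4% and 23.8% of all genes rose and 23% and 23.2% fell. The largest rise was that of Crem, a cyclic AMP-responsive transcription factor whose short forms repress, by 3.31 ± 0.10 in wild-type (adjusted p = 5.9e-11) and 3.21 ± 0.09 in Batf-/- cells (adjusted p = 1.79e-11). The adenylyl cyclase Adcy7 changed by -0.99 ± 0.08 and -0.91 ± 0.07 (adjusted p = 2.78e-07 and 1.72e-07). Prkaca, a catalytic subunit of protein kinase A, rose by 0.68 ± 0.07 and 0.42 ± 0.06 (adjusted p = 1.79e-06 and 3.94e-05).

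Of the 7 measured genes that take up or clear adenosine, 2 rose and 3 fell in wild-type and 2 rose and 2 fell in Batf-/- cells. The shares of all genes were 22.4% rising and 23% falling in wild-type, and 23.8% and 23.2% in Batf-/- cells. Ada, which deaminates adenosine to inosine, rose by 1.36 ± 0.09 and 1.31 ± 0.08 in wild-type and Batf-/- cells (adjusted p = 6e-08 and 2.25e-08). The nucleoside transporter Slc29a1 rose by 0.81 ± 0.12 and 0.61 ± 0.10 (adjusted p = 5.7e-05 and 0.00021). Adenosine kinase, Adk, which turns adenosine back into AMP, changed by -0.93 ± 0.19 and -0.84 ± 0.17 (adjusted p = 0.00133 and 0.00111).

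For ATP release, the channel Panx1 rose in Batf-/- cells (0.56 ± 0.07, adjusted p = 1.62e-05), its change in wild-type cells was 0.15 ± 0.08 (adjusted p = 0.151), and the difference between them did not pass (0.41 ± 0.10, adjusted p = 0.116). The vesicular nucleotide transporter Slc17a9 changed by -0.49 ± 0.08 and -0.30 ± 0.07 (adjusted p = 0.000136 and 0.0027). Bst1, an ectoenzyme that consumes NAD, was dim in naive cells and rose at least 4.09-fold in wild-type and at least 2.51-fold in Batf-/- cells (adjusted p = 6.17e-07 and 1.19e-05).

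Receptors outside the 7 mostly fell or did not pass. Of all genes, 22.4% rose and 23% fell in wild-type, and 23.8% rose and 23.2% fell in Batf-/- cells. Both further lysophosphatidylserine receptors fell: Gpr174 by 1.30 ± 0.21 in wild-type and 2.25 ± 0.19 in Batf-/- cells (adjusted p = 0.000171 and 3.7e-07), a difference in change that did not pass (-0.95 ± 0.28, adjusted p = 0.176), and Gpr34 at least 2.44-fold and at least 1.13-fold (adjusted p = 7.03e-07 and 4.78e-06). Of 6 further P2Y receptors 3 fell in wild-type and 2 in Batf-/- cells, and of 5 further P2X receptors none passed in wild-type cells and 1 rose and 1 fell in Batf-/- cells. The ADP receptor P2ry12, which is typical of platelets and microglia, fell at least 1.25-fold and at least 1.35-fold (adjusted p = 0.00435 and 0.00213). In the same arrays 3 of 4 platelet markers fell in each genotype, their mean going from 6.63 to 7.40 in naive to 5.62 to 5.81 in day 3 arrays, and the part of platelets was not tested. Of 8 further nucleotide hydrolases 1 rose and 2 fell in wild-type and 1 rose and 1 fell in Batf-/- cells.

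**Figure D4:**
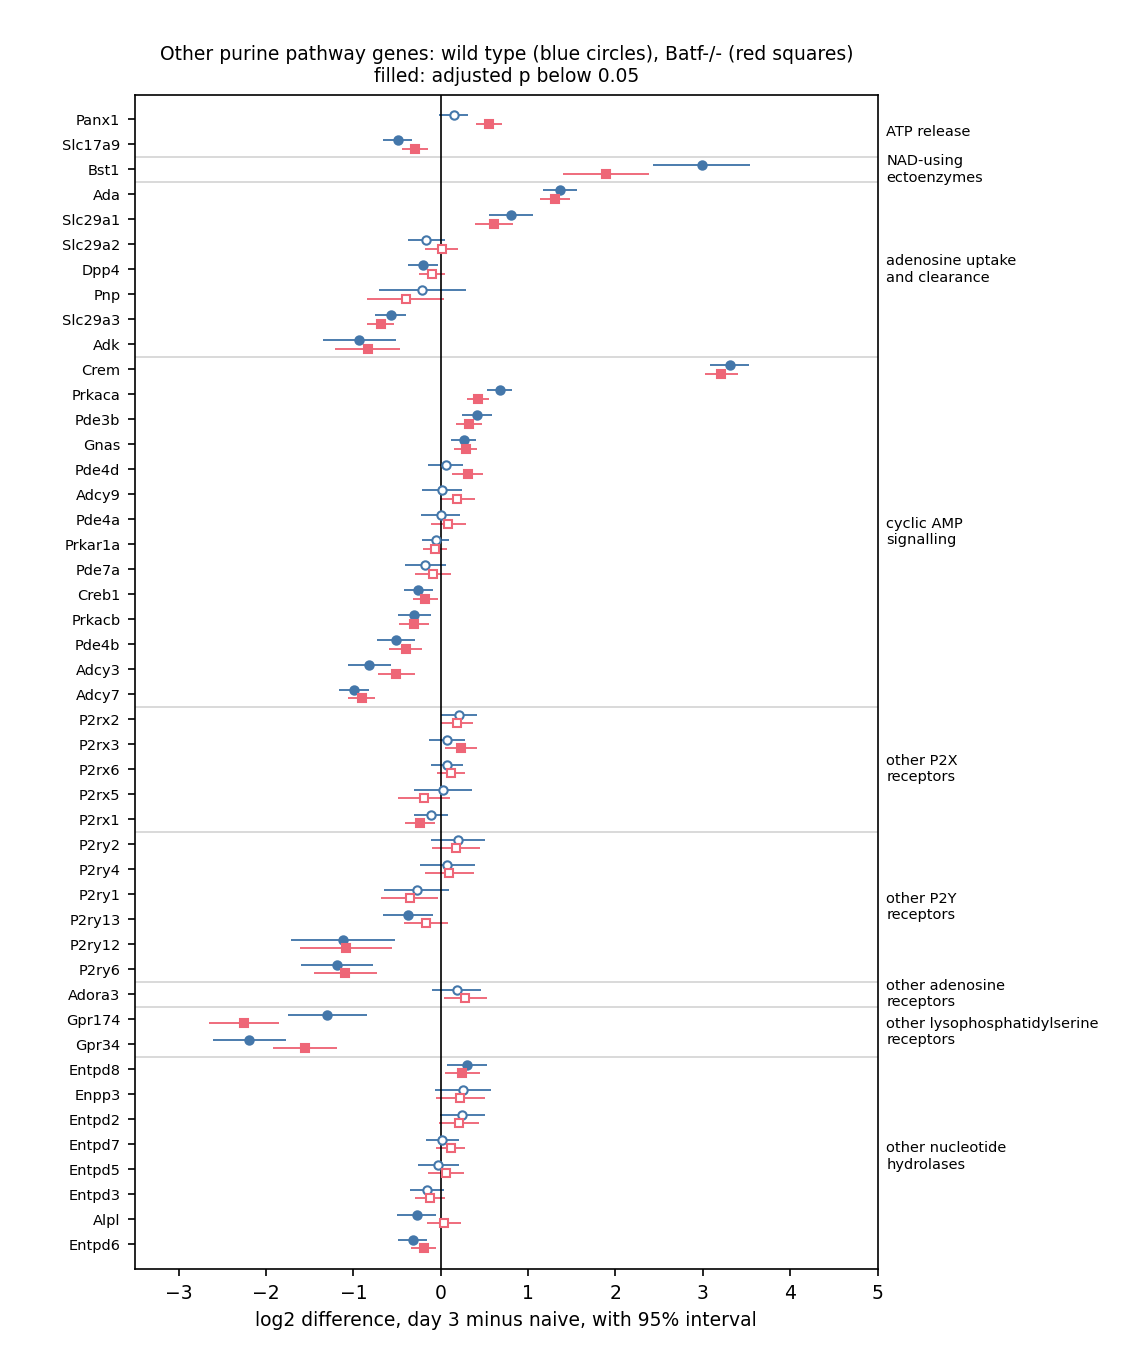
Log2 change from naive to day 3 with 95% intervals for the 46 measured further genes, grouped by role, in wild-type (blue circles) and Batf-/- cells (red squares). Filled symbols passed (adjusted p below 0.05), 24 in wild-type and 25 in Batf-/- cells, and Crem and Bst1 had the largest rises, Gpr174 and Gpr34 the largest falls.

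The genes whose profiles lay closest to those described above were found by the root mean square difference of log2 profiles over the 13 arrays, each centred on its mean, among 16218 named genes. For P2ry14, which spanned 4.73 between its lowest and highest array, they were Tgm2 (a difference of 0.35), Emilin2 (0.35) and Cox7a1 (0.37). For Entpd1, with a span of 2.71, they were Tmcc3 (0.18), Rasa4 (0.19) and Avpi1 (0.21). Nt5e was nearest to Nefh (0.10), Nedd4l (0.14) and Etfbkmt (0.14), with a span of 0.95, and P2rx4 to Hnrnph1 (0.094), Zfp131 (0.099) and Fbxo11 (0.10), with a span of 0.85. P2rx7 at 1422218_at and P2ry10 spanned 0.33 and 0.62, and their nearest profiles (Ms4a13, Slitrk1 and Kpna1, and Tagln3, Gsg1l and Cox15) were likewise nearly flat. All profiles come from the same arrays, and the states dominate them, so these lists describe likeness only.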

How the data were processed

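RNA of P14 CD8+ T cells was measured on 13 oligonucleotide arrays. The deposited values are probe set intensities on a linear scale (array medians 31.5 to 32.5), which the authors made with RMA (version not given), as the submitters' processing notes name it. RMA normalises the arrays to each other and pulls dim signals together, so differences of dim probe sets are understated. The intensities were converted to log2 here and not normalised again. Of 45101 probe sets, 34958 are assigned to 1 gene, 932 to several and 9211 to none by the platform annotation, and 64 are controls. Each of 18193 genes is represented by its brightest probe set on average (a choice for 9010 genes), and a second fit took all 45037 probe sets that are not controls.

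Models with 4 group means were fitted with limma 3.58.1 in R 4.3.3 (9 residual and 3.702 prior degrees of freedom), with two-sided moderated tests, Benjamini-Hochberg adjustment within each of 5 contrasts and a threshold of 0.05. The number of arrays limits the precision. Groups come from the sample labels. Every one of the 7 genes and its probe sets is named; of the further pathway genes, those that passed are named where few did, otherwise those with the largest changes in a role. For likeness, clone and model names were left out. Where a group mean is dim, the fold is a bound computed with that mean set to 4.35. The alternatives were a second quantile normalisation, median centring, a filter on dim probe sets, averaging a gene's probe sets or testing them singly, an intensity trend, robust eBayes, array weights, a replicate block, a fit of the compared groups alone, a 2-fold minimum and leaving out each array. Leaving out each array for the further probe sets was added after seeing the data. The genes, lists and tests were chosen with earlier results of these data known. The analysis was tested on simulated data. Promoter windows and gene order are from RefSeq (GRCm38.p6). Pathway genes without a probe set of their own (Adora1, Adora2b, Entpd4, Enpp1, Cd38, Art2a, Art2b and Slc28a2) and the markers Lck, Klrb1c and Ly6g were not analysed here. Lists of CD4 T cell and Treg markers (4.67 to 5.21 over all arrays) and of stroma and endothelium (4.73 to 5.14) were also read. Drawing used matplotlib 3.10.9.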

Additional observations from a re-analysis of the deposited data

Results flagged for a closer look

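Nt5e in wild-type day 3 replicate 4 had a log2 intensity of 6.89, far below the other 3 arrays of its group (7.38 to 7.41), with a gap of 0.948 of the group's whole range. The criterion for such a gap is met by chance in about 1 in 20 groups. Without that array, Nt5e differed between genotypes at day 3 by 0.35 ± 0.08 (limma, adjusted p = 0.0571), against 0.48 ± 0.11 with it (adjusted p = 0.0592). Its change with stimulation in wild-type cells was then 0.17 (adjusted p = 0.167), against 0.043 with it.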

How the results depend on the processing

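Over the 30 gene differences (6 genes, 5 contrasts) and 714 alternative values, 684 left the call as it was (for differences that did not pass, some with the other sign), 11 lost it, 15 gained it and 4 reversed. The reversals are those of P2rx7 with stimulation, which was -1.87 in wild-type and -1.45 in Batf-/- cells as the mean of all probe sets and -3.14 and -2.56 at its strongest single set; the choice of probe set makes this difference. The number of the 6 genes that passed between genotypes at day 3 (1) was 2 with a second quantile normalisation, without dim probe sets, with all probe sets singly or with an intensity trend, 3 with the compared groups alone, 4 with array weights, 0 with the replicate block and 0 to 2 without 1 array. In naive cells it was 0 to 1 without 1 array. With stimulation it was 2 of the 3 in wild-type and 2 of the 4 in Batf-/- cells at a 2-fold minimum, and always 3 (wild-type) and 4 (Batf-/-) without 1 array. The difference of changes gave 1 with array weights and 0 to 1 without 1 array.

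Of the further pathway genes, the 2 at day 3 became 4 without dim probe sets or with an intensity trend, 9 with array weights, 5 with the compared groups alone, 0 at a 2-fold minimum and 2 to 4 without 1 array. The 2 in naive cells became 1 without dim probe sets or at a 2-fold minimum, 0 with the compared groups alone or the replicate block and 0 to 2 without 1 array. The 24 (wild-type) and 25 (Batf-/-) that changed with stimulation became 7 each at a 2-fold minimum and 17 to 25 and 21 to 25 without 1 array. The difference of changes gave 1 with all probe sets singly or with array weights, and 0 to 1 without 1 array. The causes of these shifts were not tested.

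Samples with the same replicate number did not deviate together (correlation -0.20 to 0.055 over 11 pairs). With groups of 2 to 4 arrays this cannot show whether such samples were paired, and the labels do not say. With the replicate block, P2ry14 at day 3 had an adjusted p of 0.0781, and 3 and 4 of the 6 genes still passed with stimulation. Dim levels limit P2rx7 and Gpr34 (at day 3) and Bst1 (in naive cells) to bounds.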

Other observations

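The order of genes in RefSeq (GRCm38.p6) places several of these receptors side by side. Some neighbours changed in the same direction with stimulation and others did not. P2ry14 lies between Gpr171, another G protein-coupled receptor, and the ADP receptors P2ry13 and P2ry12. Gpr171 rose with stimulation by 0.95 in wild-type and 1.06 in Batf-/- cells (limma, adjusted p = 5.08e-06 and 5.39e-07), and its genotype difference at day 3 was 0.15 (adjusted p = 0.525), against the 1.09 of P2ry14. P2ry13 changed by -0.37 and -0.17 (adjusted p = 0.0338 and 0.27). On the X chromosome P2ry10 is followed by P2ry10b and Gpr174. P2ry10b changed by -1.13 and -0.83 (adjusted p = 9.2e-05 and 0.000435), while P2ry10 changed by 0.23 and 0.10 without passing. P2rx4 and P2rx7 are adjacent, and the next gene, Camkk2, a kinase that activates AMP kinase, changed by -1.36 and -1.28 (adjusted p = 1.38e-07 and 6.22e-08).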
